A study of Arabidopsis thaliana with 10 samples.

Results

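Unstressed second-generation progeny of plants grown at 30 °C, below generation 2, were compared with wild-type plants grown at 22 °C, both Arabidopsis thaliana of the accession Col-0. The members are the 2 generation 2 libraries, set against the 2 wild-type libraries, out of 10 libraries in the series. PolyA RNA came from the fifth true leaf at an age of 4 weeks, under 16 h of light and 8 h of dark. The labels call the progeny unstressed, and their growth temperature is not stated separately. The other 6 libraries were 2 each of 30 °C-grown Col-0 (generation 1), generation 3, and the mutant sgs3-12, and they served to estimate the spread between libraries. The labels do not state whether libraries 1 and 2 of a group are different plants, so the p-values cover the spread between 2 libraries, part of which may be technical.

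Leaves store starch by day and degrade it by night, and many of the genes for both processes follow the circadian clock. Leaf cells also carry inducible defence programmes: receptors that sense microbial patterns, the hormones salicylic acid and jasmonate, and WRKY and ERF transcription factors that act downstream. Calmodulin-like proteins bind calcium, and several of their genes respond to touch, wounding or cold within a short time.

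Generation 2 libraries 1 and 2 held 22278385 and 20533208 counts, against 23145159 and 20610397 counts in wild-type libraries 1 and 2. Of 33602 genes, 19768 had enough counts to test. All levels below are counts scaled to library size with TMM factors (CPM), given as library 1 and then library 2 of each group. Across genes, the correlation of log2 CPM between the libraries of a group was 0.782 in generation 2 and 0.913 in wild type, and it described agreement between libraries, since genes are not independent replicates. Within a pair, the coefficient of variation fitted by edgeR was 0.752 for generation 2 and 0.444 for wild type, and 0.230 to 0.465 for the other 3 pairs. As a check of the tissue, the 41 photosystem genes summed to 382017 and 136888 CPM in generation 2, against 226237 and 214838 CPM in wild type. The meristem genes STM, WUS and CLV3 and the root genes PLT1, RHD6 and IRT1 had 0 counts in all 4 libraries. These were 3 of 8 meristem markers and 3 of 9 root markers. Other members were detected: 2 meristem and 4 root markers had enough counts to test. The summed level of each list was above 0 in all 4 libraries, so the lists as a whole were not absent.

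No gene passed an adjusted p of 0.05 in the comparison of generation 2 with wild type by edgeR's quasi-likelihood test (0% of 19768 genes, lowest adjusted p 0.357). At an unadjusted p under 0.05 there were 1416 higher and 886 lower genes (7.16% and 4.48%). DESeq2, run as an alternative, called 439 genes higher and 184 lower (2.21% and 0.926% of 19864 genes). A DESeq2 call did not require both libraries to differ from wild type alike. LOX4, described further on, was below wild type in library 1 with a DESeq2 adjusted p of 0.00132. Limma called 0 genes. Because the libraries of generation 2 differed so much, the data are given below first as what both libraries show and then as what each shows alone.

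Both generation 2 libraries lay above both wild-type libraries in 3328 genes (16.8% of those tested) and below both in 3406 (17.2%). With a per-library offset for gene length, explained further on, these were 3488 (17.6%) and 3011 (15.2%). Shares near these are expected on each side when the libraries are ordered without regard to group. The counts alone therefore do not show a difference shared by the progeny. The generation 2 libraries lay on opposite sides of wild type almost as often. Library 1 was above and library 2 below wild type in 3123 genes (15.8%), and the reverse held in 2179 genes (11% of those tested). Counts of members outside wild type are read against these shares throughout.

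Among the 15 named genes lower in both libraries, 5 were starch enzymes (PHS1, GWD1, PU1, SS4 and PHS2). PHS1 (AT3G29320, chromosome 3, 11252807 to 11257814, TAIR10), the plastid glucan phosphorylase, had 53.5 and 48.3 CPM in generation 2, against 589 and 559.5 CPM in wild type. Its log2 fold change was −3.50 ± 0.46 (SE, n = 2 each), with an edgeR adjusted p of 0.357 and a DESeq2 adjusted p of 2.44e-11. The groups did not overlap, which the rule that named the 15 genes required. The libraries within each group lay close together. PHS1 overlaps AT3G29330 in the annotation, so reads of these genes cannot be fully told apart.

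GWD1, the glucan water dikinase that phosphorylates starch at the start of its breakdown, had 31.0 and 55.4 CPM in generation 2, against 403 and 1479.5 CPM in wild type. PHS2, the cytosolic phosphorylase, had 63.9 and 29.5 CPM in generation 2, against 346 and 755 CPM in wild type. SS4, a starch synthase that starts new granules, had 13.2 and 31.7 CPM in generation 2, against 140.4 and 207 CPM in wild type. By the same rule the groups were apart for each of these genes, although the wild-type libraries differed from each other by a wide margin for GWD1.

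The 21 genes of starch breakdown were all tested. Both generation 2 libraries were below wild type in 11 and above it in 1, with 7 lower and 0 higher by DESeq2 and 0 by edgeR. Of all genes it tested, DESeq2 called 0.926% lower and 2.21% higher. The median log2 ratio to the wild-type mean was −1.03 in library 1 and −1.60 in library 2, against 0.06 and −0.07 over all tested genes. PU1, the pullulanase that removes starch branches, had 12.1 and 12.0 CPM in generation 2, against 53.4 and 73.1 CPM in wild type. DPE2, which uses the maltose that leaves the plastid, had 120.0 and 53.6 CPM in generation 2, against 288 and 256 CPM in wild type. In both, the groups were apart, for PU1 by the rule that named it. The beta-amylases, which release maltose, did not follow this pattern. BAM3 had 31.8 and 1088 CPM in generation 2, against 154 and 190.5 CPM in wild type, so it was below wild type in library 1 and above it in library 2. BAM5 had 1.85 and 50.1 CPM in generation 2, against 2.70 and 5.93 CPM in wild type, the same pattern.

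Of the 17 genes of starch synthesis, both libraries were below wild type in 9 and above in 1. SBE2.1, a branching enzyme, had 14.0 and 23.8 CPM in generation 2, against 68.7 and 289 CPM in wild type. ISA2, a debranching enzyme subunit, had 37.7 and 29.4 CPM in generation 2, against 116 and 79.8 CPM in wild type. The one gene above wild type in both libraries was GBSS1, the granule-bound synthase that makes amylose, with 52.7 and 371 CPM in generation 2, against 39.7 and 17.3 CPM in wild type. With the length offset, the counts with both libraries below wild type became 8 of 21 for breakdown and 6 of 17 for synthesis.

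The promoters of PHS1, PWD (a second starch-phosphorylating dikinase) and PRR7 (APRR7 in the file) are shown because they lay below wild type in both libraries and hold motifs known from clock-controlled genes. Each line gives the 250 bases before the annotated start from RefSeq (TAIR10.1), read 5′ to 3′ on the gene's strand. Capitals mark AATATCT (the evening element core), CACGTG (the G-box), TTGACC or TTGACT (the W-box) and GAANNTTC (the heat shock element core), on either strand. The regions are chr3:11252557-11252806 on the plus strand, chr5:9261229-9261478 on the plus strand and chr5:642031-642280 on the minus strand.
PHS1: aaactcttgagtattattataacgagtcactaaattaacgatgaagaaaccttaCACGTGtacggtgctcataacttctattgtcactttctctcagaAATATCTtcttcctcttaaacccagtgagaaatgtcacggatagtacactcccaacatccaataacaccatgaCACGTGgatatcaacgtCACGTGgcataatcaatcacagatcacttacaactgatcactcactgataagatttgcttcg
PWD: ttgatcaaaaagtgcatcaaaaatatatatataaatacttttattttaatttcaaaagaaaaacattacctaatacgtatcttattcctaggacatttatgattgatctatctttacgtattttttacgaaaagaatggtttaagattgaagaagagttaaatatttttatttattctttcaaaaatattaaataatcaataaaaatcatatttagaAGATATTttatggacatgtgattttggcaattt
PRR7: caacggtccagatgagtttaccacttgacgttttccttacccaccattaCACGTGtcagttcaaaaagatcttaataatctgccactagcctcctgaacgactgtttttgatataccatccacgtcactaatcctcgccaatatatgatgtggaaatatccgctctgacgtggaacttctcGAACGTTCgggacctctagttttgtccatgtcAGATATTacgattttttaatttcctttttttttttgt

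Motifs were counted over the 250 bases before and 50 after each start. AATATCT was in 8 of 21 starch breakdown promoters, 13 of 27 clock promoters and 5 of the 15 named genes lower in both libraries, against 11.5% of all 27437 promoters. CACGTG was in 7 of 21, 12 of 27 and 5 of 15 of the same promoters, against 7.68% of all. A second window, the 300 bases before the start only, was counted after the first and gave the same number of evening elements or fewer: 6 of 21, 13 of 27 and 3 of 15, against 11.8% of all. In that window CACGTG was in 7 of 21, 9 of 27 and 5 of 15, against 7.09% of all. The motifs were not particular to these sets. In the first window, CACGTG was in 5 of 15 stress-related ERF promoters and 5 of 25 jasmonate promoters, and AATATCT in 7 of 25 jasmonate promoters. Other lists were lower: AATATCT was in 1 of 15 stress-related ERF promoters, and each motif in 1 of 26 pattern immunity promoters. The starch and clock lists were added to the motif count after their levels had been seen, and a match is a description of letters and not of binding.

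**Figure D1:**
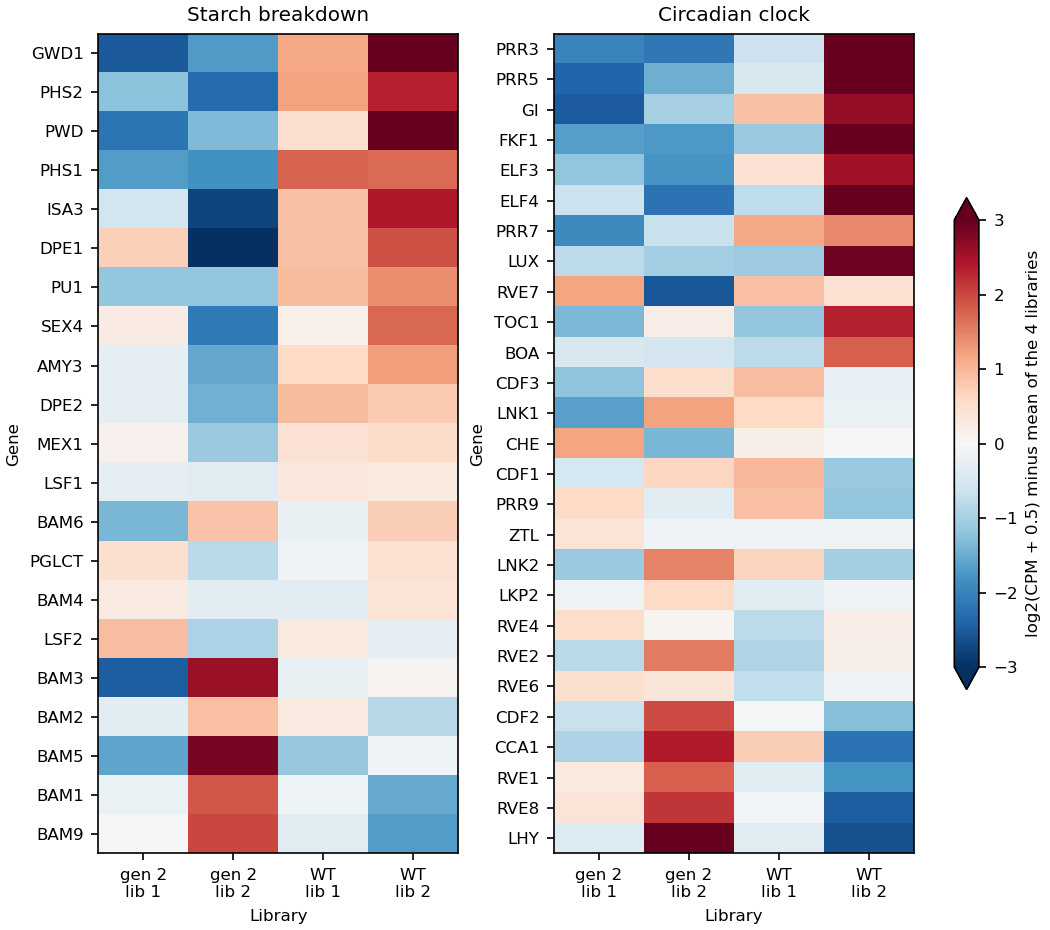
Levels of 21 starch breakdown genes and 27 clock genes in generation 2 libraries 1 and 2 and wild-type libraries 1 and 2; colour is log2(CPM + 0.5) minus the mean of the 4 libraries. GWD1, PWD, PHS1 and PHS2 are blue in both generation 2 libraries, BAM1, BAM3, BAM5 and BAM9 are red in library 2, and for many clock genes the wild-type libraries differ from each other.

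Clock genes differed between the wild-type libraries themselves, which bears on every rhythmic gene above. TOC1, an evening repressor of the clock, had 12.6 and 38.0 CPM in generation 2, against 14.3 and 163 CPM in wild type. FKF1, a blue-light receptor of the late day, had 0.393 and 0.340 CPM in generation 2, against 0.796 and 61.3 CPM in wild type. The hour of harvest is not in the labels, and its part in the starch and clock differences was not tested. PRR7, a daytime repressor, was the clock gene ranked first among those lower in both libraries, with 34.9 and 83.5 CPM in generation 2, against 299.9 and 361 CPM in wild type, and here the wild-type libraries were alike. GI, a clock and flowering regulator, had 3.64 and 11.2 CPM in generation 2, against 42.9 and 146 CPM in wild type. ELF3, a member of the evening complex, had 5.61 and 3.60 CPM in generation 2, against 18.3 and 79.1 CPM in wild type. Of the 27 clock genes, both libraries were below wild type in 6 and above in 4, against 17.2% and 16.8% of all tested genes. DESeq2 called 8 lower, against 0.926% of all genes it tested. With the length offset, both libraries were below in 7 and above in 8, against 15.2% and 17.6% of all tested genes. The morning genes CCA1 and LHY were high in library 2 alone. CCA1 had 34.5 and 344 CPM in generation 2, against 110.3 and 13.8 CPM in wild type. LHY had 20.8 and 292 CPM in generation 2, against 21.6 and 4.08 CPM in wild type.

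Other genes lower in both libraries were XYL1, an alpha-xylosidase that trims cell wall xyloglucan, with 108 and 114 CPM in generation 2, against 439 and 596 CPM in wild type, and SGS3, the partner of the polymerase RDR6 in making trans-acting small RNAs. SGS3 had 9.48 and 7.87 CPM in generation 2, against 24.0 and 35.1 CPM in wild type, which is −1.77 ± 0.34 as log2 fold change (SE, n = 2 each), with an edgeR adjusted p of 0.357 and a DESeq2 adjusted p of 3.79e-04. By the rule that named them, the groups did not overlap for either gene. The other named lower genes were AT3G46370, AT3G01310, AT1G63240, AT3G05130, emb2746, IBS1 and AT1G32090, each with both libraries below wild type.

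**Figure D2:**
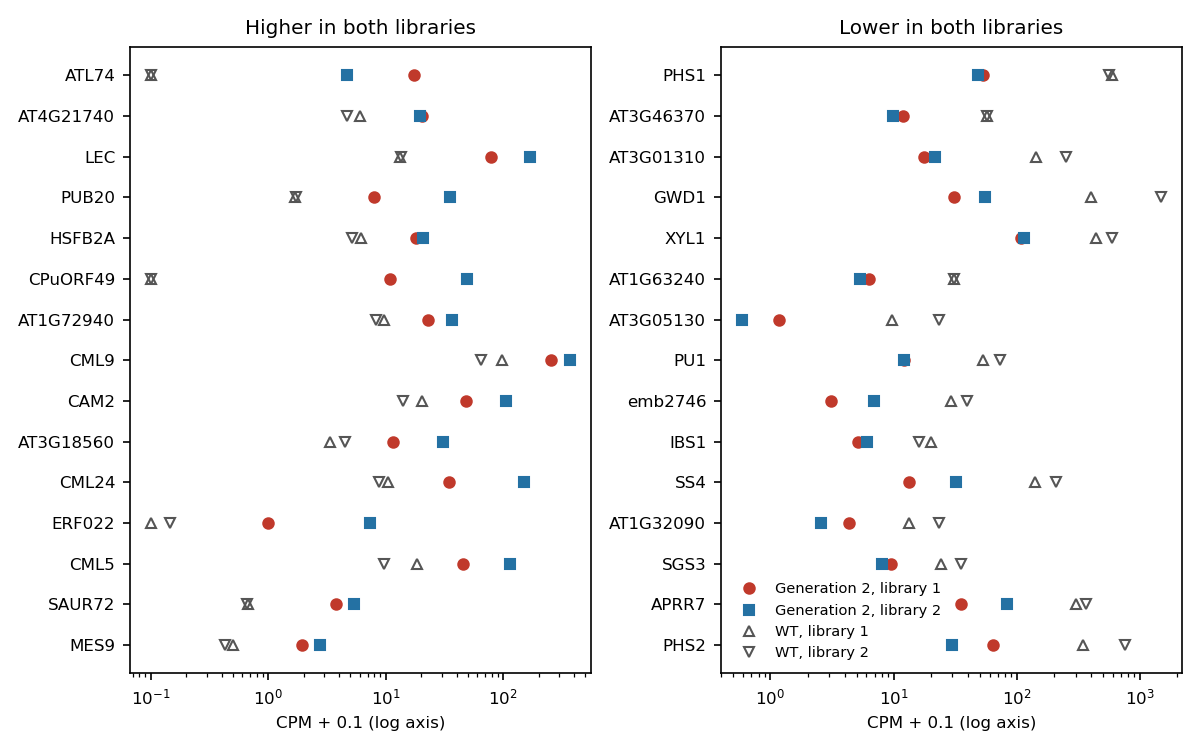
CPM plus 0.1 on a log axis for the 15 genes per direction with the smallest p among those on one side of wild type in both libraries; filled symbols are generation 2 libraries 1 and 2, open triangles wild-type libraries 1 and 2. By the choice of genes the groups do not overlap; in the left panel, library 2 is the higher of the generation 2 pair except for ATL74 and AT4G21740.

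Genes higher in both libraries included calcium sensors. CML24 (TCH2), a touch-induced calmodulin-like protein, had 34.6 and 151 CPM in generation 2, against 10.4 and 8.62 CPM in wild type. CML9, another calmodulin-like protein, had 256 and 370.0 CPM in generation 2, against 97.3 and 64.3 CPM in wild type. TCH4, a touch-induced enzyme that remodels xyloglucan, had 35.2 and 113 CPM in generation 2, against 9.68 and 8.39 CPM in wild type. In each case both generation 2 libraries were above both wild-type libraries, for CML24 and CML9 by the rule that named them. In each, library 2 was the higher.

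Of 15 calcium and touch genes, 14 were tested. Both libraries were above wild type in 10 and below in 0, with 7 higher by DESeq2, against 2.21% of all genes DESeq2 tested. The median log2 ratio was 0.56 in library 1 and 2.89 in library 2. CML38 and CML40 show how uneven the pair was. CML38 had 2.299 and 96.3 CPM in generation 2, against 1.15 and 0.649 CPM in wild type. CML40 had 0.336 and 61.6 CPM in generation 2, against 0.177 and 0.185 CPM in wild type. Of 15 stress-related ERF genes, which encode ethylene response transcription factors, both libraries were above wild type in 8 and below in 0. DESeq2 called 9 of them higher, against the same 2.21%, and the medians were 0.40 and 3.64. With the length offset, both libraries were above wild type in 8 of 14 and 4 of 15, against 17.6% of all tested genes. The library 1 medians then became 0.43 and 0.04, against 0.03 over all tested genes. On that scale, library 1 was below and library 2 above wild type in 4 calcium and 2 ERF genes. Both lists hold short genes, with median lengths of 809 and 972 bp. In the 10% of genes with a median length of 888 bp, 73.6% were above wild type in library 1, with a median log2 ratio of 0.68. ERF11 had 1.29 and 107 CPM in generation 2, against 0.133 and 0.603 CPM in wild type. ERF4 had 22.4 and 131 CPM in generation 2, against 5.79 and 14.3 CPM in wild type.

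Single genes outside these lists were LEC, which encodes a lectin-like protein, and PUB20, a U-box ubiquitin ligase. LEC had 79.2 and 170.1 CPM in generation 2, against 13.2 and 13.4 CPM in wild type, which is 3.23 ± 0.52 as log2 fold change (SE, n = 2 each), with adjusted p values of 0.357 by edgeR and 3.44e-06 by DESeq2. PUB20 had 7.91 and 35.1 CPM in generation 2, against 1.59 and 1.62 CPM in wild type. HSFB2A, a class B heat shock factor, had 18.1 and 20.7 CPM in generation 2, against 6.01 and 5.10 CPM in wild type, with like levels in both generation 2 libraries. ATL74 and CPuORF49 had 0 counts in both wild-type libraries, but they overlap AT5G01881 and HSFB1 in the annotation, so their values are uncertain.

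Of 28 heat shock protein genes, the generation 2 libraries lay on opposite sides of wild type in 11, in 10 of them with library 1 below and library 2 above. Both libraries were above wild type in 3 and below in 2, with 0 higher and 1 lower by DESeq2. The median log2 ratio was −0.89 in library 1 and 0.75 in library 2. HSP90.1, a cytosolic chaperone, had 2.97 and 57.7 CPM in generation 2, against 6.28 and 8.39 CPM in wild type. HSP70-4, another cytosolic chaperone, had 4.49 and 114 CPM in generation 2, against 8.71 and 9.04 CPM in wild type. Both were below wild type in library 1 and above in library 2. The gene called lower by DESeq2 was BAG6, a co-chaperone, with 0.336 and 1.99 CPM in generation 2, against 13.3 and 22.8 CPM in wild type. HSFA2, a heat shock factor linked to heat memory, had 1.46 and 2.09 CPM in generation 2, against 1.11 and 0.278 CPM in wild type and the groups did not overlap at this low level. REF6, a histone H3K27 demethylase, had 2.86 and 16.8 CPM in generation 2, against 26.6 and 22.3 CPM in wild type, with both libraries below wild type and library 1 far lower.

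In library 1, the ratio to wild type fell with gene length. In the shortest 10% of genes, with a median length of 607 bp, its median log2 ratio was 0.71, and 73.8% of genes were above both wild-type libraries. In the longest 10%, with a median of 4123 bp, the median was −1.75, and 83.2% of genes were below. In library 2 the same medians were −0.10 and −0.16. Slopes on gene length were fitted to each gene's log2 CPM minus its mean over all 10 libraries, so they are relative to that mean. Per 10-fold of length, the slope was −2.17 in generation 2 library 1 and 0.51 in library 2, against 0.85 and 0.63 in wild type. Library 1 of generation 3 had the next lowest slope, −1.19.

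**Figure D3:**
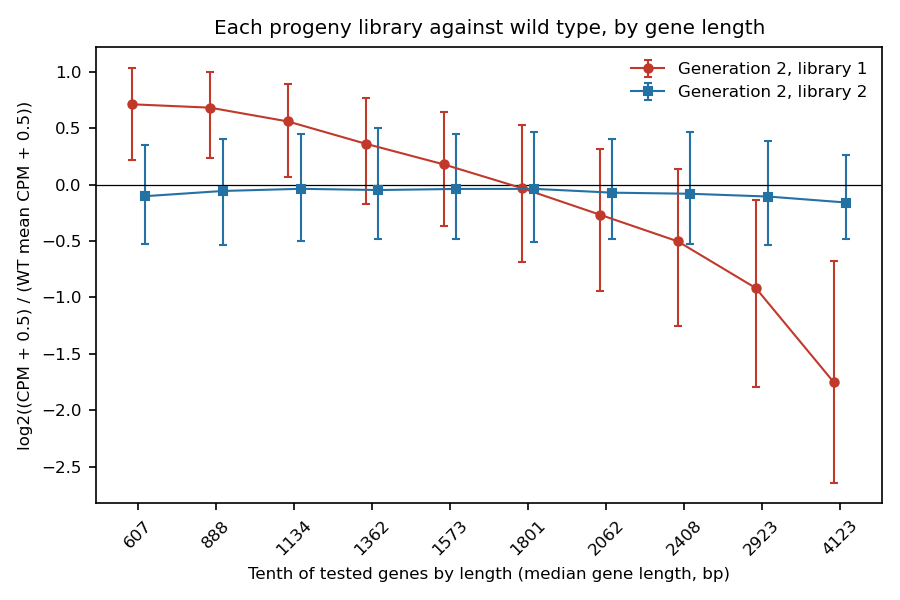
Median log2 ratio of each generation 2 library to the wild-type mean (0.5 CPM added to both) for 10 equal groups of genes by length; bars span the quartiles over genes. Library 1 falls steadily to −1.75 in the longest genes, while library 2 stays between −0.16 and −0.04.

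Fitted without library 2, and so assuming that 1 library varies like the other groups, library 1 had 51 genes higher and 1586 lower (0.252% and 7.84% of 20221) by edgeR at an adjusted p under 0.05. Of the lower calls, 744 were in the longest 10% of genes. With an offset that removes each library's smooth trend on gene length, 0 genes were called in either direction (0%; 4145 at an unadjusted p under 0.05, lowest adjusted p 0.0740). RNA integrity values are not in the labels, and the part of RNA quality in the length trend was not tested.

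No gene was at least 4-fold above wild type in library 1 alone by the rule used for single libraries, and 481 were at least 4-fold below, with a median length of 3654 bp. Library 2 was above wild type in 278 of them. BON1, a copine that restrains immune receptors, had 0.168 and 35.9 CPM in generation 2, against 15.1 and 13.3 CPM in wild type; it overlaps AT5G61910. SHD, the ER chaperone of the HSP90 family, had 9.36 and 244 CPM in generation 2, against 198 and 259 CPM in wild type. AT1G67120, at 16347 bp the longest of the named genes, had 0.953 and 34.5 CPM in generation 2, against 32.3 and 30.1 CPM in wild type. In all 3, library 2 was near or above wild type.

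Lists of long genes were low in library 1 as well. RNA silencing genes (22, median length 3792 bp) were below wild type in library 1 in 20, and in both libraries in 13. Their median log2 ratio was −2.04 in library 1 and −0.36 in library 2, and with the length offset −0.51 and −0.30. With the offset, library 1 was below wild type in 14 of 22. Both libraries were then below in 10, against 15.2% of all tested genes. RDR6, the polymerase that works with SGS3, had 3.70 and 15.7 CPM in generation 2, against 30.2 and 26.9 CPM in wild type. AGO10, an Argonaute, had 8.35 and 13.2 CPM in generation 2, against 33.1 and 38.6 CPM in wild type. NLR immune receptor genes (21, median length 3654 bp) were below wild type in 19 in library 1, while 12 were above it in library 2. Their library 1 median was −1.65, and −0.34 with the length offset. ZAR1, a resistosome-forming receptor, had 24.8 and 766 CPM in generation 2, against 92.6 and 198 CPM in wild type.

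Short photosynthesis genes were high in library 1. Of 41 photosystem genes, 39 were above wild type in library 1 and 30 below it in library 2 (43.7% and 38.7% of all tested genes). The median log2 ratios were 0.87 and −0.57, and 0.41 and −0.52 with the length offset. With the offset, 25 of 41 were above wild type in library 1 and 28 below it in library 2 (39.8% and 35.8% of all tested genes). LHCB1.3, a light-harvesting protein of photosystem II, took 4.65% and 1.65% of all counts in generation 2, against 3.02% and 4.17% in wild type. The 22 genes of cell wall loosening were above wild type in library 1 in 20, with medians of 1.204 in library 1 and −0.39 in library 2. With the length offset, library 1 was above wild type in 17 of 22, and the medians were 0.81 and −0.37. Among these 22 genes, XTH24, a xyloglucan-modifying enzyme, had 236 and 88.1 CPM in generation 2, against 41.1 and 34.0 CPM in wild type. EXPA8, an expansin, had 768 and 11.4 CPM in generation 2, against 287 and 289 CPM in wild type. EXPA8 thus lay on opposite sides of wild type in the 2 generation 2 libraries.

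Library 2 was high in defence genes that were not high in library 1. Fitted without library 1, it had 715 genes higher and 49 lower (3.52% and 0.241% of 20306) by edgeR at an adjusted p under 0.05, and 792 and 50 with the length offset (3.9% and 0.246%). By the 4-fold rule, 315 genes were above wild type in library 2 and not in library 1, and 106 were below. LOX4, a lipoxygenase of jasmonate synthesis, had 1.402 and 627 CPM in generation 2, against 3.71 and 3.80 CPM in wild type. Its log2 fold change was 7.38 in the fit without library 1, and it was named for its distance from wild type in library 2. That fit again assumed that 1 library varies like the other groups. The coefficient of variation within the generation 2 pair was 0.752, the largest of all pairs. WRKY40, a transcription factor of defence, had 0.953 and 208 CPM in generation 2, against 0.133 and 1.90 CPM in wild type; it overlaps AT1G80850. CYP71B15 (PAD3), which makes the antimicrobial camalexin, had 0 and 85.0 CPM in generation 2, against 0.0884 and 0.556 CPM in wild type.

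ERF109, an ethylene response factor, had 0 and 133 CPM in generation 2, against 0 and 0.0927 CPM in wild type, and it overlaps AT4G34412. TAT3, a tyrosine aminotransferase induced by jasmonate, had 2.24 and 740.3 CPM in generation 2, against 0.928 and 6.26 CPM in wild type. UGT76B1, a glucosyltransferase of defence compounds, had 0 and 82.9 CPM in generation 2, against 0.177 and 0.0927 CPM in wild type. For all 6 of these genes, library 1 lay between or below the wild-type libraries. UGT76B1 and TAT3 were also high in sgs3-12 library 2, at 70.5 and 270.4 CPM.

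**Figure D4:**
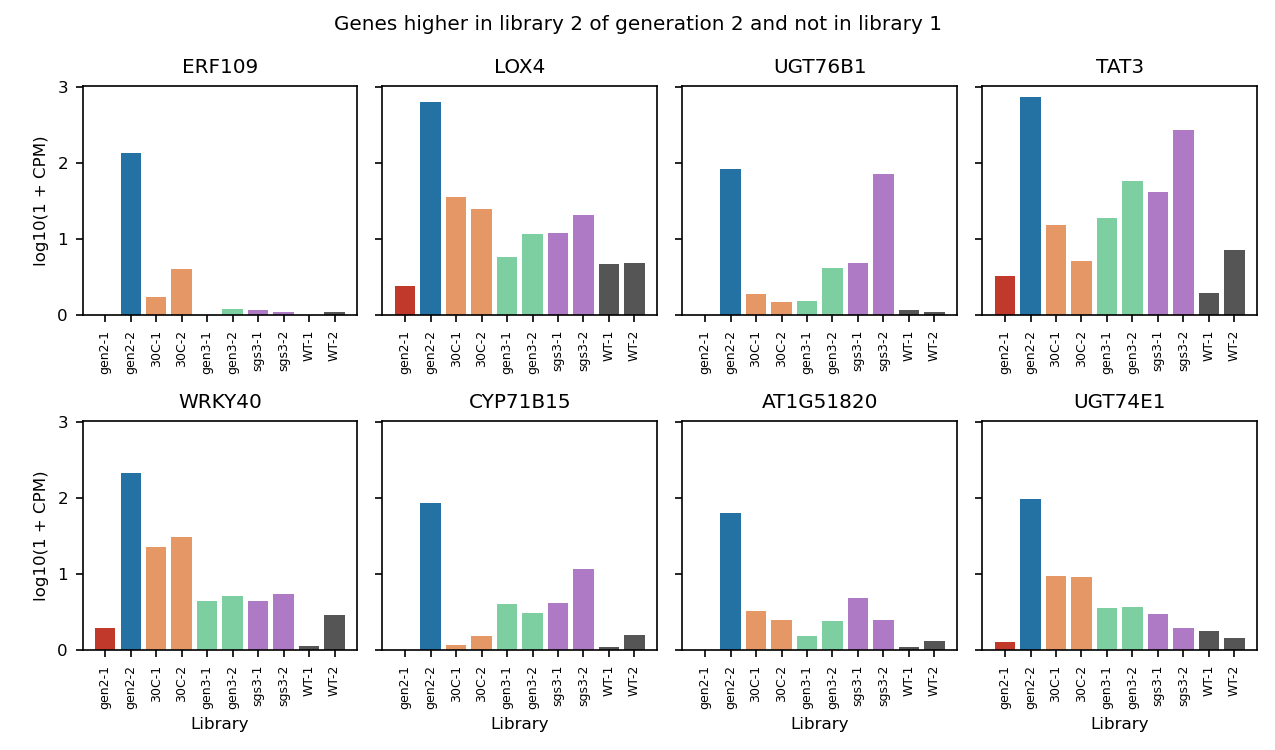
log10(1 + CPM) in each of the 10 libraries for the 8 genes farthest above wild type in library 2 of generation 2 and not in library 1; from left to right generation 2, 30 °C-grown plants, generation 3, sgs3-12 and wild type. Library 2 of generation 2 is the highest bar in every panel, and library 1 is at or near 0.

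The defence lists were mostly above wild type in library 2. All 19 salicylic acid genes were above wild type in library 2 (34.5% of all tested genes), while library 1 was above in 2 and below in 6 (43.7% and 36.5%). With the length offset, library 1 was above in 6 and below in 4 (39.8% and 33.2% of all tested genes on that scale), and library 2 was still above in 19. The medians were −0.27 in library 1 and 2.70 in library 2, and 0.03 and 2.74 with the offset, and 7 genes were called higher in library 2 alone. PR1, the classic marker of salicylic acid signalling, had 0.505 and 124 CPM in generation 2, against 0 and 1.34 CPM in wild type. CBP60G, an activator of salicylic acid synthesis, had 2.24 and 123 CPM in generation 2, against 4.38 and 5.93 CPM in wild type. ALD1, which makes the immune signal pipecolic acid, had 0 and 35.4 CPM in generation 2, against 0 and 0 CPM in wild type. The 19 genes summed to 241 and 1404 CPM in generation 2, against 194 and 360 CPM in wild type. In sgs3-12 they summed to 899 and 1466 CPM.

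Of 24 tested genes of pattern-triggered immunity, 22 were above wild type in library 2, and library 1 was above in 4 and below in 12. With the length offset, library 1 was above in 8 and below in 7, and library 2 was above in 22. FRK1, a receptor kinase induced by flagellin, had 0 and 34.6 CPM in generation 2, against 0.0442 and 0.788 CPM in wild type. PEPR1, a receptor for danger peptides, had 3.20 and 145 CPM in generation 2, against 16.2 and 15.6 CPM in wild type. RBOHD, the oxidase of the immune oxidative burst, had 32.5 and 239.8 CPM in generation 2, against 31.1 and 37.3 CPM in wild type. FLS2, the flagellin receptor, was an exception, with 12.1 and 44.1 CPM in generation 2, against 44.1 and 55.3 CPM in wild type. Of 17 defence WRKY genes, 15 were above wild type in library 2. WRKY53 had 4.54 and 162 CPM in generation 2, against 2.56 and 1.76 CPM in wild type. WRKY33 had 12.8 and 369.9 CPM in generation 2, against 14.5 and 44.6 CPM in wild type. WRKY33 and WRKY53 each overlap a neighbouring gene.

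Jasmonate genes were above wild type in library 2 in 22 of 25 and in both libraries in 10, with medians of 0.11 in library 1 and 2.87 in library 2. With the length offset, library 2 was above in 23 and both libraries in 7. On that scale library 1 was above in 7 and below in 5, and library 2 was above wild type in those 5. In the comparison of the whole pair, 10 jasmonate genes were called higher by DESeq2, against 2.21% of all genes it tested. AOC3, an allene oxide cyclase, had 1.18 and 162 CPM in generation 2, against 0.309 and 0.788 CPM in wild type. JAZ9, a repressor of jasmonate responses, had 126 and 876 CPM in generation 2, against 44.7 and 61.6 CPM in wild type. MYC2, the factor that JAZ proteins hold back, had 35.0 and 521 CPM in generation 2, against 24.0 and 87.4 CPM in wild type. VSP1, a vegetative storage protein, had 2.86 and 3.60 CPM in generation 2, against 0.619 and 28.2 CPM in wild type, inside the range of wild type.

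**Figure D5:**
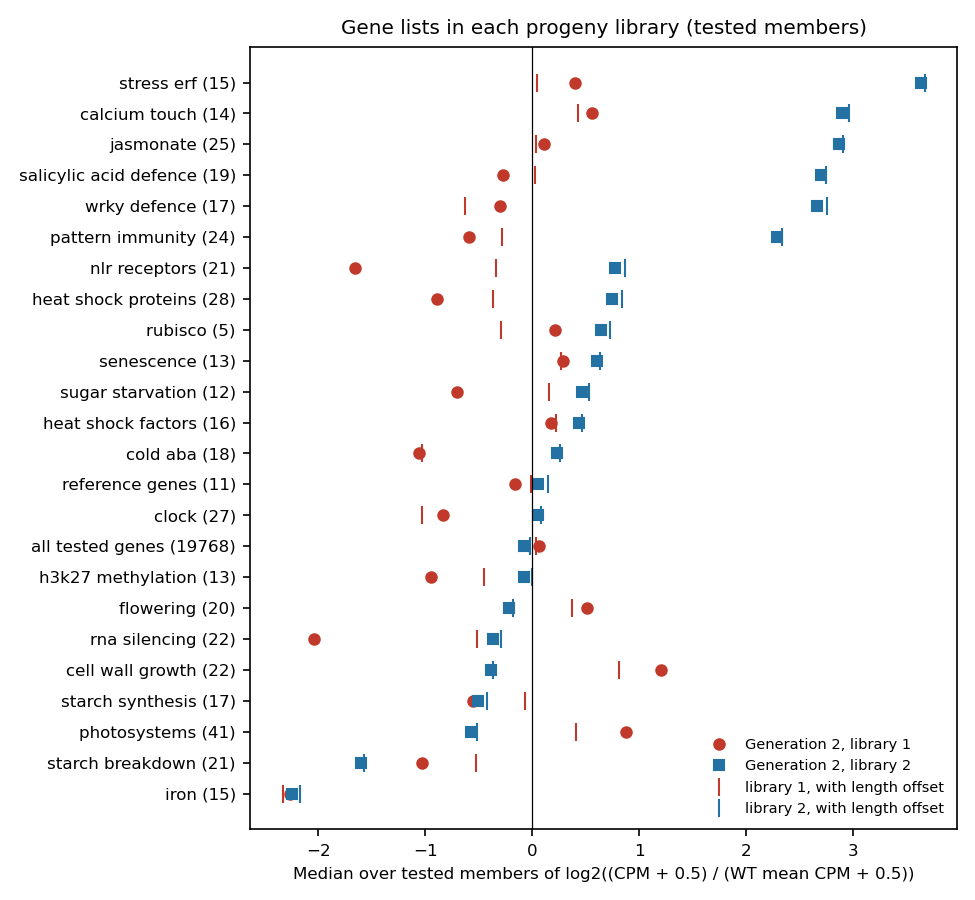
Median log2 ratio to the wild-type mean over the tested members of each list (number in brackets), for generation 2 library 1 (circles) and library 2 (squares); ticks give the medians with the length offset. Salicylic acid, WRKY, pattern immunity, jasmonate, calcium and ERF lists lie right of 2 in library 2, with or without the offset. In library 1 these lists lie between −0.63 and 0.56. The NLR receptor list lies at 0.78 in library 2 and −1.65 in library 1, and at 0.86 and −0.34 with the offset. Starch breakdown lies left of 0 in both libraries.

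The promoters of CYP81F2, a cytochrome P450 of indole glucosinolate synthesis, and FRK1 are shown as genes of the list in which W-boxes, the sites that WRKY factors bind, were most frequent. CYP81F2 had 0.953 and 67.1 CPM in generation 2, against 0.619 and 1.76 CPM in wild type. The capitals mark the same motifs as above, and the regions are chr5:23187590-23187839 on the plus strand and chr2:8329945-8330194 on the minus strand.
CYP81F2: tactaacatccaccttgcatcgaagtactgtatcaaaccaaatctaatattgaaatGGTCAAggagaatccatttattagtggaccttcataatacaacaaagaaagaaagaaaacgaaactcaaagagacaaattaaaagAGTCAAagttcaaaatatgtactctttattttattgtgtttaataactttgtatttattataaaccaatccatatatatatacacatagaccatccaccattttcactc
FRK1: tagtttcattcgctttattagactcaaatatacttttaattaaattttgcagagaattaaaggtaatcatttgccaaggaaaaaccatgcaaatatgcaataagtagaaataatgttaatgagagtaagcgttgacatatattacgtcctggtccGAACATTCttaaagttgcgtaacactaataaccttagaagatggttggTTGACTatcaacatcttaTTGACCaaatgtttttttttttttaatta

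TTGACC or TTGACT was in 17 of 26 pattern immunity promoters in both windows, against 32.4% of all promoters in the first and 32.3% in the second. It was in 3 of the 8 named genes of library 2 and in 6 of 17 defence WRKY promoters in the first window. In the same window it was in 8 of 25 jasmonate promoters and 7 of 19 salicylic acid promoters. The immunity and WRKY lists were likewise added to the motif count after their levels had been seen.

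Genes below wild type in library 2 alone included growth genes. GASA6, a gibberellin-regulated peptide, had 742 and 6.61 CPM in generation 2, against 294 and 354 CPM in wild type. IAA29, an auxin response repressor, had 45.3 and 0.535 CPM in generation 2, against 15.1 and 23.8 CPM in wild type. In both, library 1 was above wild type. By edgeR, 0 of the 8 named genes of this set passed in library 2 alone, GASA6 having an adjusted p of 0.131 and EXPA8 one of 0.0598.

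Markers of other leaf cell types differed between the libraries. The 8 tested of 9 guard cell and stomatal markers, of which TGG1 and TGG2 give most of the counts, summed to 1414 and 3372 CPM in generation 2, against 5103 and 2460.4 CPM in wild type. The library 1 sum was below both wild-type sums and the library 2 sum lay between them. Of the 8 tested, 6 were below wild type in library 1 and 4 in library 2, against 36.5% and 38.7% of all tested genes. The 9 vascular markers summed to 254 and 531 CPM in generation 2, against 434 and 751 CPM in wild type, and the sums lay in the same order. Of these markers, 6 of 9 were below wild type in library 1 and 1 in library 2, to be read against the same shares. The 7 epidermal markers summed to 1507 and 915 CPM in generation 2, against 1106 and 863 CPM in wild type, so here library 1 was above both wild-type libraries and library 2 between them. Fewer cells of a type and less RNA per cell cannot be told apart in whole leaves, and the part of cell makeup in the differences above was not tested. The iron list had the lowest medians in both libraries, but here too the wild-type libraries were apart. BHLH38, a factor of the iron deficiency response, had 1.63 and 0 CPM in generation 2, against 0 and 32.6 CPM in wild type. FER1, the iron store ferritin, had 548 and 594 CPM in generation 2, against 269 and 11.2 CPM in wild type.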

How the data were processed

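PolyA RNA of 10 libraries was sequenced by the submitters, and groups were taken from the sample titles. Reads were aligned with HISAT2 2.0.4 and assembled with StringTie 1.3.0 on TAIR10, per the submitters' processing notes. The labels name no counting tool and no strand setting; overlapping genes are marked. The authors' table gives deposited read counts per gene and FPKM values (fragments scaled to gene length and library size), likewise deposited by the authors. Gene length was taken from the ratio of count to FPKM. 2 FPKM columns that share a name were not used.

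Counts were tested with edgeR 4.0.16 (R 4.3.3): TMM scaling, filterByExpr, the quasi-likelihood F-test over all 10 libraries with group as the factor, and Benjamini-Hochberg adjustment over all genes tested, at a threshold of 0.05. SE is the fold change divided by the root of F. DESeq2 1.42.0 and limma 3.58.1 were alternatives. Ratios of one library used 0.5 CPM added to both sides. The length offset is a lowess trend (span 0.3) on log10 length in each library, fitted to each gene's log2 CPM minus its mean over the libraries.

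Genes higher or lower in both libraries were named by rule: mean FPKM of 1 or more, both libraries on one side of wild type with and without the length offset, and the 15 smallest p per direction. Genes of one library needed a mean CPM of 5 or more, a 4-fold distance from the nearest wild-type library and no like change in the other, and the 8 farthest were named. List members were to be the most abundant and those of smallest p, up to 6 a list; several members named here were instead chosen after their values were seen. The members and the 28 lists were chosen with earlier results of these data known. Gene names came from the file and a RefSeq table that matched 32835 of 33602 IDs. Promoters were read from TAIR10.1 at RefSeq gene starts, after checking that gene ends match the file's coordinates on every nuclear chromosome. The motif letters were fixed at the start of the work, the promoter window was not: the window of 250 bases before and 50 after the start was counted first, and that of 300 bases before it was added to keep transcribed bases out.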

Additional observations from a re-analysis of the deposited data

How the results depend on the processing

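The count of 0 genes called by edgeR held with RLE size factors, with no low count filter, with only the 4 libraries of both groups, with the length offset, and in limma with each pseudocount and filter. DESeq2 called 623 genes. With the replicate number as a replicate block, 1 gene was called (AT4G36988, CPuORF49); the labels do not pair the samples, and with 2 pairs the deviations of generation 2 and wild-type library 1 correlated at 0.120. Leaving out 1 library at a time gave 0 to 1637 calls: 764 without generation 2 library 1, 1637 without its library 2, 1 without wild-type library 2, and 0 without any other. With the length offset added, the fit without generation 2 library 1 called 842 genes and that without library 2 called 0. Without library 1 of both generation 2 and generation 3, 1222 were called; these combined fits were chosen after seeing the data. The cause of these differences was not tested. The count of genes with both libraries above wild type was 3328 and ranged from 5685 to 8643 without one library, where fewer libraries have to lie apart, and that below was 3406 and ranged from 5269 to 7656; it stayed within 1.5 times under the other settings. Among the 30 genes named for both libraries and HSFA2 and REF6, 0 changed direction under any setting. For the 30 genes this follows largely from the rule that named them, so it is no measure of robustness. Some genes named for one library did change, which their own rule favours. Of 24, the direction of the fit to both libraries changed in 9 with library 1 alone, in 8 with library 2 alone and in 3 with the length offset. BON1 had a log2 fold change of 0.35 in both libraries and −6.50 in library 1 alone. In library 2 alone GASA6 was at −5.62, EXPA8 at −4.66 and IAA29 at −5.17, against 0.21, 0.44 and 0.24 in the fit to both. Of 466 tested list entries, 129, 99 and 55 changed direction under these 3 fits, and 5 under DESeq2. The second promoter window moved the evening element from 5 to 3 of 15 shared lower genes and from 8 to 6 of 21 starch breakdown genes. Depth limits genes of a few counts, such as HSFA2, and 2 libraries a group limit all.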

Other observations

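Gene Ontology groups in the deposited table were read for the share of members on one side of wild type, with no test, and the groups below were chosen after their values were seen. Both generation 2 libraries were above wild type in 107 of 225 genes of the response to chitin, a fungal cell wall polymer, and in 31 of 69 genes that respond to unfolded protein in the endoplasmic reticulum, against 16.8% of all tested genes. Of these, 85 and 25 kept both libraries above wild type with the length offset. Both libraries were below wild type in 35 of 59 genes of chromatin silencing by small RNA and 42 of 77 genes of histone H3-K9 methylation, against 17.2% of all tested genes, and 28 and 35 remained so with the offset. These are groups of long genes, with median lengths of 2540 and 2487 bp against 1687 bp over all tested genes.

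Library 1 was above and library 2 below wild type in 30 of 53 genes of respiratory complex I, against 15.8% of all tested genes, and 17 of them stayed so with the length offset. Library 1 was below and library 2 above wild type in 64 of 134 genes of ADP binding, a term that covers many immune receptors, against 11% of all tested genes, and 34 stayed so with the offset.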
